A study of Mus musculus with 22 samples.

Results

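Interferon-stimulated genes are genes whose transcription rises when a cell receives an interferon signal. Of the 24421 genes in the count tables, 9 were chosen by symbol, namely Ifit1, Ifit3, Irf7, Isg15, Oasl2, Bst2, Usp18, Rtp4 and Tgtp1. All 9 were found in the table of the male mice and in the table of the female mice. Total RNA of the right brain hemisphere had been sequenced from 22 C57BL/6JOlaHsd mice of an inbred strain, with no transgene or drug treatment named in the labels. They had been housed 4 to a cage. Rank was set at 10 to 12 weeks by the tube test, where cage mates meet in a narrow tube and the one pushed back loses. The groups were 7 dominant males, 7 submissive males, 4 dominant females and 4 submissive females, with 1 mouse of each rank from each of 7 male and 4 female cages. Rank was therefore relative to cage mates, and the study mixed some female intermediates into new cages for a second test. The males and the females are in separate count tables, and their library names carry different prefixes whose meaning the labels do not give. Sex and table, with whatever else differs between the tables, cannot be told apart.

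Cells sense foreign nucleic acid and secrete interferons, which bind receptors on the same and on neighbouring cells. Type I interferons act through the receptor subunits IFNAR1 and IFNAR2 and the kinases JAK1 and TYK2, which activate transcription factors that bind the interferon-stimulated response element (ISRE) in promoters. Interferon gamma uses a receptor of its own and a further element, the gamma-activated sequence (GAS). In the brain, microglia, endothelial cells, astrocytes and neurons can all respond, and a low tonic expression of the target genes is known in unchallenged tissue.

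Of the 9 genes, 7 had a promoter sequence in RefSeq (GRCm38.p6), while Usp18 and Rtp4 are named only. An ISRE core, made of GAAA, any 2 bases and GAAA again and searched on both strands with overlapping matches allowed, was found within the 250 bases before the start site in 5 of these 7 genes. It was found in 2.98% of all 32851 promoters of that length and in 3.46% of 27025 genes. Irf7 and Oasl2 held no match in this window. The stretches below are shown because they carry the element that places these 5 genes together. They are written 5′ to 3′ on the strand of the gene, with the bases of the match in capitals and TTTC standing for GAAA on the opposite strand.
Ifit1: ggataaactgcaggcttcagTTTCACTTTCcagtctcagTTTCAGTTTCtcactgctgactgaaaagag
Ifit3: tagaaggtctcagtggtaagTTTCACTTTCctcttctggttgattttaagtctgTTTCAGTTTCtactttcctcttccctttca
Isg15: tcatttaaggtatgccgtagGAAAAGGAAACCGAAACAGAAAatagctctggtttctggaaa
Bst2: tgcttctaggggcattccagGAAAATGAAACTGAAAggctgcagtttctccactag
Tgtp1: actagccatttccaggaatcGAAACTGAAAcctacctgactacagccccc

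The Ifit1 stretch lies at chr19:34640765-34640833 on the plus strand and its 2 matches begin 104 and 85 bases before the start site. That of Ifit3 is at chr19:34583353-34583436 on the plus strand, with 2 matches that begin 156 and 122 bases before the start. The Isg15 stretch, chr4:156200855-156200916 on the minus strand, holds 3 overlapping matches that begin 78, 72 and 66 bases before the start. Bst2 has 2 overlapping matches, 130 and 124 bases before its start, at chr8:71537567-71537622 on the minus strand. Tgtp1 has 1 match, 77 bases before its start, at chr11:48992294-48992343 on the minus strand. A GAS core, TTCNNNGAA, was found in the windows of Bst2 and Tgtp1 alone among the 7 genes and in 8.13% of all genes. For comparison, an ISRE core was found in 8 of 9 interferon-inducible GTPases with an entry and in 15 of 44 other interferon-stimulated genes. It was found in 8 of 15 interferon genes, 3 of 17 receptor and signalling genes, 2 of 12 class I genes and 0 of 9 genes of nucleic acid sensing. A match of letters describes the sequence and does not show that a factor binds there.

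The genes are spread over 8 chromosomes of mm10, and counts cover their exons. Ifit3 (chr19:34583529-34588982) and Ifit1 (chr19:34640889-34650009) are neighbours on the plus strand of chromosome 19. Irf7 is at chr7:141263183-141266424, Isg15 at chr4:156199424-156200818, Bst2 at chr8:71534262-71537437 and Tgtp1 at chr11:48985329-48992246, all on the minus strand. Oasl2 is at chr5:114896934-114912245, Usp18 at chr6:121245906-121270917 and Rtp4 at chr16:23609919-23614222, on the plus strand. None of the 9 shared exon bases with an overlapping gene. Near-identical copies matter for 2 of them, because 75.7% of the 85-base words of Tgtp1 transcripts also occur in transcripts of Tgtp2 or Gm12185, and 37.1% of those of Ifit3 occur in Ifit3b. The share was 9.99% for Rtp4, 4.43% for Ifit1, 1.55% for Usp18 and 0 for the other 4 genes. How reads that map to several places were counted is not given in the sources used here, so values of Tgtp1 and Ifit3 are uncertain. Their comparisons by rank and between the tables are also given with the reads of Tgtp2 or Ifit3b added. Gm12185, with 0 to 4 reads per mouse, was not added.

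Between 12403943 and 15805170 reads per male and between 14967458 and 16488762 per female were counted on genes. The tissue carried the markers of brain, with 6 neuronal markers summing to 3872 to 4897 CPM, which are read counts scaled to a common library size, and 5 oligodendrocyte markers to 4186 to 5642 CPM in the 22 mice. In bulk tissue, fewer cells of a type and less RNA per cell cannot be told apart. Depth was low for these genes. The counts per mouse ranged from 75 to 139 reads for Ifit3, but from 4 to 19 for Isg15 and from 3 to 18 for Tgtp1.

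The ligands of the pathway were close to the limit of detection. Of 15 interferon genes looked at, 10 had no read in any of the 22 mice, Ifnb1 among them, and the 15 genes together had 11 reads. The highest count in a mouse was 2, for interferon gamma (Ifng). A count of 0 allows up to 3 reads, equal to 0.180 to 0.241 CPM, counting error only. The receptors and signalling genes were all read. Ifnar1 stood at 62.2 ± 2.29 CPM (SD, n = 22), Ifnar2 at 16.3 ± 1.57 CPM, Stat2 at 21.7 ± 2.66 CPM and Irf9 at 8.09 ± 1.05 CPM.

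Levels of the genes were compared per kilobase of exon. Ifit3, a member of the same gene family as Ifit1, was the highest at 3.80 ± 0.477 CPM per kb (SD, n = 22). Bst2, which encodes tetherin, a membrane protein that holds budding virus particles at the cell, followed at 3.35 ± 0.737 CPM per kb. Ifit3 lay above Bst2 in 15 of 22 mice, so that the order of these neighbours varied. Ifit1, whose protein binds the 5′ ends of foreign RNA, stood at 1.63 ± 0.384 CPM per kb and below Bst2 in all 22 mice. Rtp4, a receptor transporter protein induced by interferon, was at 1.13 ± 0.220 CPM per kb, below Ifit1 in 20 of 22 mice. It lay above the next gene in 19 of 22.

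A group of 4 genes followed with levels that overlapped. Oasl2, a member of the oligoadenylate synthetase family, was at 0.889 ± 0.210 CPM per kb. Isg15, a ubiquitin-like modifier, was at 0.855 ± 0.311, Irf7, the transcription factor that drives interferon genes, at 0.841 ± 0.188, and Usp18, the protease that removes ISG15 and dampens the receptor, at 0.749 ± 0.212 CPM per kb. Each of the first 3 lay above its next neighbour in only 10 to 12 of 22 mice. Tgtp1, an immunity-related GTPase that acts on the vacuoles of intracellular parasites, was the lowest at 0.228 ± 0.0827 CPM per kb and below Usp18 in all 22 mice.

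At these depths counting error made up much of the spread between mice of a group. The variance within groups was 0.659 times the counting error for Tgtp1 and 0.900 times for Isg15, and between 1.08 and 1.72 times for 6 other genes. Ifit1 was the exception at 3.47 times. The median over 15233 genes, most of them read more deeply, was 2.01 times, and the values are not comparable across depths.

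**Figure D1:**
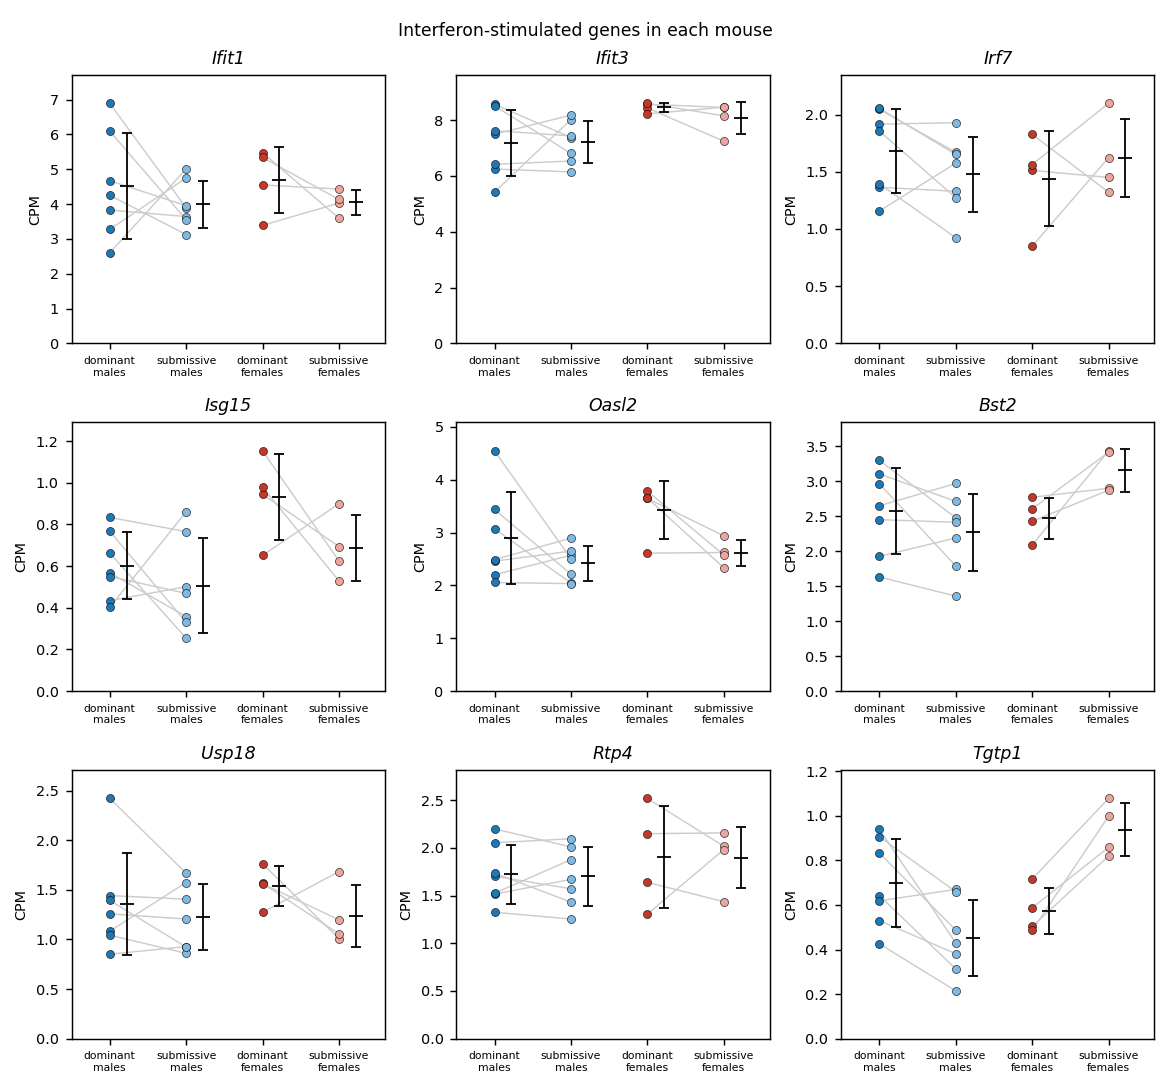
Level of each gene in each mouse, in CPM (read counts scaled to library size, vertical axes from 0), by rank and sex. Points are mice, grey lines join cage mates, and black bars give the mean and SD. Ranks overlap in all male panels, whereas the dominant females lie below the submissive females in the panels of Bst2 and Tgtp1.

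The first comparison asked whether the genes differed between dominant and submissive males. None did after adjustment. With edgeR's quasi-likelihood test and Benjamini-Hochberg adjustment, 0 of the 14737 genes tested in males were called (0%) and 1.32% had an unadjusted p under 0.05. DESeq2 called 0 as well, with 119 genes at an unadjusted p under 0.05. Of the 9 genes, 7 passed the expression filter, since Isg15 and Tgtp1 were too low in males, and 0 of the 7 reached an unadjusted p under 0.05. The median log2 fold change of the 7, dominant relative to submissive, was 0.18, beside 0.00 over all genes tested. Ranks overlapped for all 9 genes, while 0.00679% of the genes tested did not overlap.

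Ifit1 was at 3.83, 6.89, 2.603, 4.25, 4.67, 3.28 and 6.10 CPM in dominant males 1 to 7 and at 3.64, 3.896, 5.01, 3.13, 3.95, 4.75 and 3.56 CPM in submissive males 1 to 7. Dominant males held both the lowest and the highest values. The log2 fold change was 0.18 (95% interval -0.20 to 0.55, adjusted p = 1.00 by edgeR). Ifit3 lay between 5.42 and 8.56 CPM, median 7.49, in dominant and between 6.14 and 8.18 CPM, median 7.37, in submissive males, a log2 fold change of -0.01 (-0.22 to 0.21). With Ifit3b added it was 0.07 (-0.11 to 0.26). Oasl2 lay between 2.05 and 4.55 CPM, median 2.49, in dominant and between 2.03 and 2.89 CPM, median 2.50, in submissive males. The difference was 0.26 on the log2 scale (-0.08 to 0.61), with 3 dominant males above every submissive male and medians that hardly differed. Dominant male 2 was the highest for both Ifit1 and Oasl2, and without it the log2 fold changes were 0.05 and 0.12.

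For the regulators, Irf7 had a log2 fold change of 0.19 (-0.17 to 0.56) and Usp18 of 0.14 (-0.33 to 0.61) in males. The Usp18 value turned to -0.05 without dominant male 2, which had 2.42 CPM of Usp18 where the other 13 males had 0.851 to 1.67 CPM. With a mouse left out the Irf7 value ran from 0.10, without submissive male 6, to 0.27. Bst2 differed by 0.18 (-0.19 to 0.55), or by 0.09 without submissive male 1, and Rtp4 by 0.02 (-0.29 to 0.34) on the log2 scale. Isg15, fitted without the filter, differed by 0.28 (-0.31 to 0.86).

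Tgtp1 had the largest male value, but on few reads. Dominant males 1 to 7 had 6, 11, 13, 8, 9, 13 and 8 reads, or 0.426, 0.833, 0.940, 0.642, 0.618, 0.907 and 0.530 CPM. Submissive males 1 to 7 had 3, 7, 6, 4, 10, 10 and 6 reads, or 0.214, 0.487, 0.429, 0.313, 0.670, 0.660 and 0.381 CPM. The dominant mouse was higher in 6 of 7 cages, and the ranks overlapped. In the fit without the filter the log2 fold change was 0.61 (0.05 to 1.17), with an unadjusted p of 0.0347 and an adjusted p of 1.00 by edgeR. A two-sided exact permutation test of the CPM values gave p = 0.0303 (n = 7 and 7), 1 of 18 such tests made over the 9 genes and both sexes. Rank swapped within the 7 cages, also exact and two-sided, gave p = 0.0312. With reads of Tgtp2 added the log2 fold change fell to 0.40 (-0.02 to 0.82), with an unadjusted p of 0.0636 and an adjusted p of 1.00 by edgeR.

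In females the question was the same, and again no gene of the 9 passed the threshold. Of 14865 genes tested, 14 were called (0.0942%), 11 higher and 3 lower in dominant females, and 10.5% had an unadjusted p under 0.05. DESeq2 called 77, of which 73 were higher and 4 lower. All 9 genes passed the expression filter, which needs 4 females at 0.630 CPM before TMM scaling. Isg15 passed it through the dominant females, with 4 of 4 and 2 of 4 submissive females at that level, and Tgtp1 through the submissive females, with 4 of 4 and 1 of 4 dominant females. These 2 genes are therefore left out of the counts and were fitted without the filter. Of the other 7 genes, 0 were called and 2 had an unadjusted p under 0.05, Oasl2 higher and Bst2 lower in dominant females. Over all genes tested, 6.43% were higher and 4.08% lower at that level. The median log2 fold change of the 7 was 0.06, beside 0.00 over all genes tested. Ranks did not overlap for 1 of the 7, Bst2. Among all genes tested 5.66% did not overlap, 2.29% with dominant females lower.

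Tgtp1 was at 0.504, 0.485, 0.587 and 0.716 CPM in dominant females 1 to 4, from 8, 8, 9 and 11 reads, and at 0.820, 0.999, 0.859 and 1.08 CPM in submissive females 1 to 4, from 13, 16, 13 and 18 reads. Every dominant female lay below every submissive female, and thus below her own cage mate in 4 of 4 cages. In the fit without the filter the log2 fold change was -0.72 ± 0.31 (SE; 95% interval -1.34 to -0.10), with an unadjusted p of 0.0235 and an adjusted p of 0.446 by edgeR. Rank swapped within the 4 cages, exact and two-sided, gave p = 0.125, the smallest that 4 cages allow, so that this test cannot pass 0.05. A permutation over all 8 females without regard to cage, exact and two-sided, gave p = 0.0286, the smallest that 4 against 4 mice allow. With reads of Tgtp2 added the dominant females had 1.20, 1.03, 1.04 and 1.56 CPM and the submissive females 1.51, 2.00, 1.98 and 1.68 CPM. The ranks then overlapped, and the log2 fold change was -0.57 with an adjusted p of 0.325.

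Bst2 was at 2.77, 2.43, 2.09 and 2.61 CPM in dominant and at 2.90, 2.87, 3.44 and 3.42 CPM in submissive females 1 to 4. The groups did not overlap, although the gap between 2.77 and 2.87 CPM was small. The log2 fold change was -0.35 ± 0.15 (SE; -0.67 to -0.04), adjusted p = 0.417 by edgeR, with the dominant mouse lower in 4 of 4 cages. Both exact tests were again at their smallest p, 0.125 within cages and 0.0286 without regard to cage.

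Oasl2 moved the other way in females. It was at 3.65, 2.61, 3.78 and 3.65 CPM in dominant females 1 to 4 and at 2.33, 2.62, 2.58 and 2.94 CPM in submissive females 1 to 4. Of the dominant females, 3 lay above every submissive female, while dominant female 2 lay among the submissive mice. The log2 fold change was 0.38 ± 0.16 (SE; 0.05 to 0.70), adjusted p = 0.396 by edgeR.

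The other 6 genes were further from the threshold in females. Isg15 was at 0.945, 1.153, 0.979 and 0.651 CPM in dominant and at 0.694, 0.624, 0.529 and 0.899 CPM in submissive females, and the log2 fold change, fitted without the filter, was 0.43 (-0.18 to 1.03). The ranks overlapped through dominant female 4, who lay below submissive females 1 and 4. Usp18 differed by 0.31 (-0.15 to 0.77), Ifit1 by 0.21 (-0.10 to 0.51), Ifit3 by 0.06 (-0.12 to 0.25) or, with Ifit3b added, by 0.12 (-0.06 to 0.30), Irf7 by -0.19 (-0.68 to 0.30) and Rtp4 by 0.00 (-0.44 to 0.44) on the log2 scale. With a mouse left out the value ran from 0.22 to 0.49 for Usp18, 0.13 to 0.33 for Ifit1 and 0.01 to 0.09 for Ifit3. The Irf7 value was -0.33 without dominant female 3 and 0.00 (log2 fold change -0.0013) without dominant female 2. Ifit3 had the narrowest interval of the 9 and the most reads, 116 to 139 per female.

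Marker genes of other cell types were read beside these values. Choroid plexus markers summed to 694 to 857 CPM in dominant and 664 to 1012 CPM in submissive females, with 4 of the 5 lower in dominant females at an unadjusted p under 0.05. Among ependymal markers, Tmem212 (-0.72) and Ccdc153 (-0.53) were lower on the log2 scale at that level. Alas2, the 1 of 5 red cell markers with any read, lay between 3.85 and 5.98 CPM in dominant and between 2.58 and 3.78 CPM in submissive females, without overlap. The 4 globin genes of that list were listed at 0 in all mice. Microglial markers, 12 genes, summed to 500.0 to 516 CPM in dominant and 492.97 to 508 CPM in submissive females. Those of leukocytes summed to 17.2 to 21.5 and 16.5 to 20.3 CPM. Of 3 leukocyte markers tested 1 was higher in dominant females at an unadjusted p under 0.05. Of 6 neuronal markers 1 was higher and 1 lower at that level. In males, choroid plexus markers summed to 587 to 1069 CPM in dominant and 458 to 848 CPM in submissive mice, with 2 of the 5, Ttr and Folr1, higher in dominant males at an unadjusted p under 0.05. None of the 5 ependymal markers reached that level in males, while 1 of 4 leukocyte markers tested and 1 of 6 of meninges and pericytes were lower. The part of these cell types in the values of Tgtp1, Bst2 and Oasl2 was not tested.

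**Figure D2:**
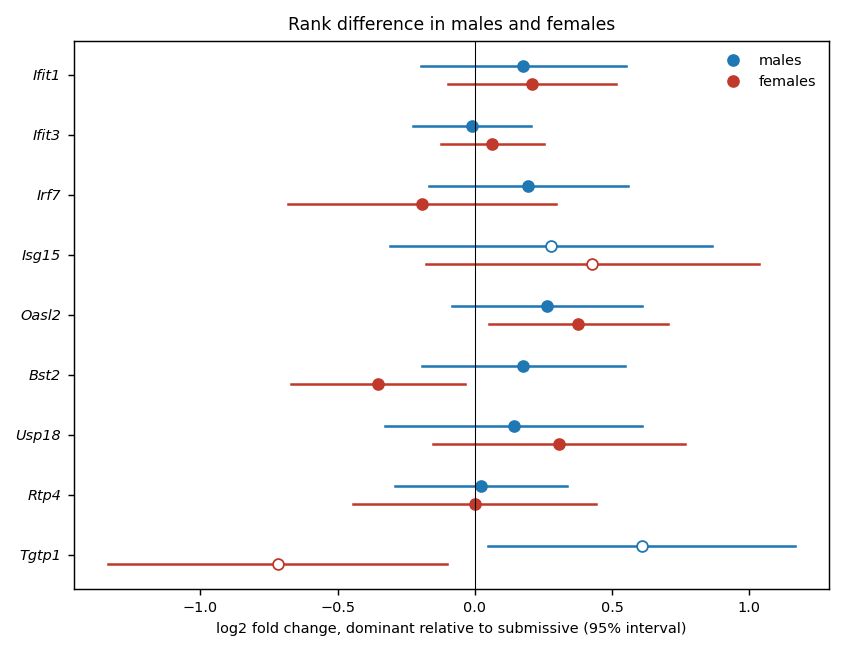
Log2 fold change of each gene, dominant relative to submissive, with its 95% interval, in males (blue) and females (red). Open symbols mark genes fitted without the expression filter, Isg15 and Tgtp1 in both sexes. Intervals leave out 0 for Oasl2, Bst2 and Tgtp1 in females and for Tgtp1 in males, and none of these differences passed the adjusted threshold.

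Whether the effect of rank differed between the sexes was tested over all 22 mice. Of 15233 genes, 0 were called (0%) by edgeR and by DESeq2, and 3.32% had an unadjusted p under 0.05. Tgtp1 and Bst2 were 2 of those, both with the rank effect lower in females, as in 1.52% of all genes. The rank effect on Tgtp1 was lower in females than in males by 1.32 on the log2 scale (log2 difference -1.32, -2.06 to -0.58), with an unadjusted p of 0.0012 and an adjusted p of 0.999. With Tgtp2 added the difference was -0.96. For Bst2 it was -0.52 (-1.03 to -0.01), with an unadjusted p of 0.0445. In females and in males the fitted rank effects of these 2 genes thus pointed in opposite directions, and the difference did not hold against the number of genes tested. Choroid plexus markers were read beside them, with 3 of 5 (Ttr, Kl and Folr1) lower in this difference at an unadjusted p under 0.05 and a median of -0.40. So were 2 of 5 ependymal markers, Tmem212 and Ccdc153, with a median of -0.27 over the 5. The red cell marker Alas2 was higher in this difference at that level (0.58). The part of these markers' cell types in the values of Tgtp1 and Bst2 was not tested. The remaining 7 genes had differences between -0.38 for Irf7 and 0.17 for Usp18. The Irf7 value was -0.18 without dominant female 2, and that of Usp18 was 0.36 without dominant male 2 and 0.08 without submissive male 2.

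The pathway around the 9 genes showed no calls by rank either. Of 133 further genes in 6 lists (interferons, receptors and signalling, nucleic acid sensing, other interferon-stimulated genes, interferon-inducible GTPases and class I antigen presentation), 96 were tested in males and 100 in females, and 0 were called in either. Unadjusted p fell under 0.05 for 4 in each sex, 4.17% in males beside 1.32% of all genes, and 4% in females beside 10.5% of all genes. In females these were Parp14 and Mx2, higher by 0.28 and 0.53 on the log2 scale, and the peptide-loading genes Tap2 and Tapbp, lower by 0.34 and 0.14 (log2 fold changes -0.34 and -0.14). The 13 class I genes, of which 0 were called, summed to 235 to 240 CPM in dominant and 243 to 246 CPM in submissive females. These sums did not overlap. Among single genes tested, 5.66% did not overlap between the female ranks, 2.29% with dominant females lower. The summed levels of the signalling, sensing, other interferon-stimulated and GTPase lists overlapped between the female ranks. In males the 4 were Ifnar2 (-0.20), Tlr9 (0.63), Ifit3b (0.26) and Irgm1 (0.20).

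Cage was examined next, because the mice of a cage were housed together and sacrificed at the same time. In males 868 of 14737 genes (5.89%) differed between cages, with 22.3% at an unadjusted p under 0.05. Of the 7 genes tested 0 were called, and Bst2 and Usp18 had an unadjusted p under 0.05. By edgeR's quasi-likelihood test, Bst2 had an adjusted p of 0.183 (unadjusted 0.0341) and Usp18 an adjusted p of 0.191 (unadjusted 0.0368). The cage mates dominant male 1 and submissive male 1 were the lowest of their rank for Bst2, at 1.63 and 1.36 CPM. Dominant male 2 and submissive male 2, also cage mates, were the highest of their rank for Usp18, at 2.42 and 1.67 CPM. In females 11 of 14865 genes (0.074%) were called between the 4 cages, with 5.11% at an unadjusted p under 0.05. Of the 9 genes 0 reached either level. Of the further pathway genes, Psmb10, a subunit of the immunoproteasome, was called between male cages with an adjusted p of 0.0257, 1 of 96 tested (1.04%). Of the markers read beside these values, 2 of 6 neuronal and 1 of 8 endothelial markers were called between male cages, and 5 of the 6 neuronal markers had an unadjusted p under 0.05. Markers of the other cell types gave 0 calls in males, and all marker lists gave 0 in females. The part of these cell types in the values of Bst2 and Usp18 was not tested.

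Dominant male 2 was the highest of the 14 males for 4 of the 9 genes, at 6.89 CPM for Ifit1, 8.56 for Ifit3, 4.55 for Oasl2 and 2.42 for Usp18. The next male was close for Ifit3 (8.51 CPM) and at 6.10 CPM for Ifit1. Over all genes tested it was the highest in 9.24%, and among 42 other interferon-stimulated genes in 11, or 26.2%. It was the lowest male for 5 of these 42, or 11.9%, beside 10.3% of all genes tested. Of 12 interferon-inducible GTPases it was the highest for 5 and the lowest for 1, and of 13 class I genes for 2 and 1. Summed over the 9 genes it had 30.8 CPM, whereas the other 13 males had 18.7 to 25.6 CPM and its cage mate 22.7 CPM. Its microglial markers summed to 467 CPM, the lowest of the males (467 to 555 CPM). Its leukocyte markers summed to 22.96 CPM and those of its cage mate to 26.4 CPM. The other males had 17.7 to 21.5 CPM of leukocyte markers. The part of cell makeup in these values was not tested.

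**Figure D3:**
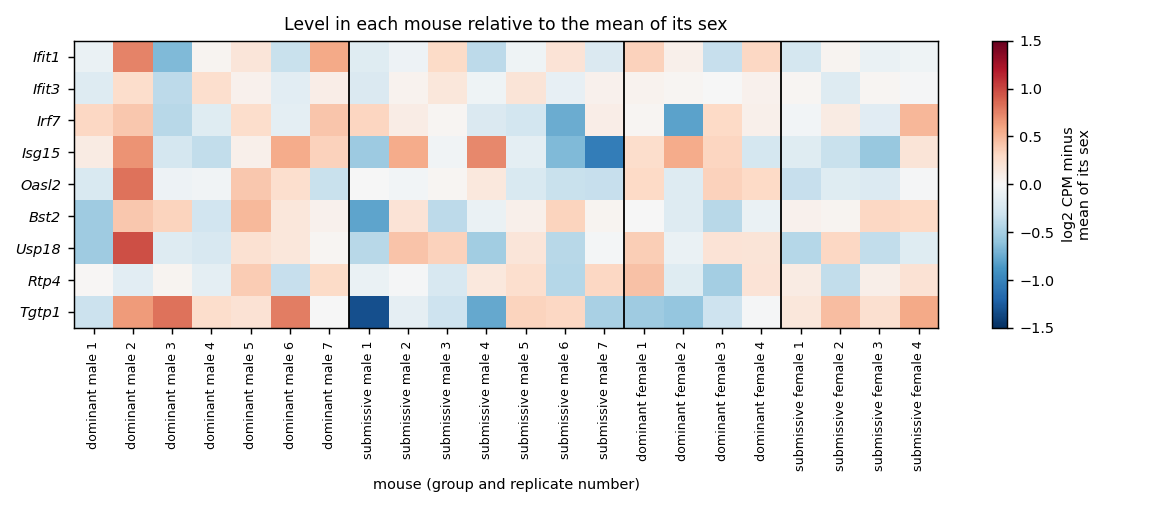
Log2 CPM of each gene in each mouse minus the mean of the mice of the same sex, red above and blue below. Black lines separate dominant males, submissive males, dominant females and submissive females. Dominant male 2 is above the male mean for 8 of the 9 genes, and Tgtp1 is below the female mean in the 4 dominant females and above it in the 4 submissive females.

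The female and the male table were compared last, with sex and table inseparable. Of 15233 genes 5512 were called (36.2%), 18.4% higher and 17.8% lower in females. Among the 9 genes, 2 were called, both higher in females, and 8 of 9 had a positive log2 fold change, with a median of 0.18 beside 0.00 over all genes tested. The share of calls, 2 of 9, did not exceed that of all genes. Marker genes were read beside these values. Neuronal markers summed to 4663 to 4897 CPM in females and 3872 to 4533 CPM in males, with 2 of 6 called, Snap25 (0.45) and Rbfox3 (0.39), and a median log2 fold change of 0.08. Of 4 Purkinje cell markers 2 were called higher in females, Cbln1 (0.52) and Calb1 (0.31), and the median was 0.41. Alas2 was lower in females, with a log2 fold change of -0.74 and an adjusted p of 4.52e-05 by edgeR. Called lower in females were also 2 of 5 oligodendrocyte markers and 2 of 6 of meninges and pericytes. So were 1 of 5 of astrocytes and 1 of 5 of choroid plexus, whereas 1 of 5 ependymal markers was called higher. The median log2 fold changes of these lists were 0.02, -0.10, -0.08, 0.13 and 0.13 in that order. Those of oligodendrocytes and choroid plexus were thus not lower in females as lists. Of 12 microglial markers 1 was called higher and 2 lower, and of 8 endothelial and 5 leukocyte markers 0 were called. The part of these cell types in the values was not tested.

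Ifit3 was at 8.26 ± 0.441 CPM (SD, n = 8) in females and at 7.20 ± 0.958 CPM (n = 14) in males. The log2 fold change was 0.20 ± 0.07 (SE), with an adjusted p of 0.0333 by edgeR, and 7 of 8 females lay above the male median. The call was lost when the 11 cages were summed (adjusted p = 0.0564), after a correction for exon length (0.0920), in dominant mice alone (0.186) and in submissive mice alone (0.240). The log2 fold changes of these fits were 0.20, 0.16, 0.23 and 0.16. It was also lost on leaving out any female except submissive female 2, or dominant male 1, 3 or 6 or submissive male 1, 4 or 6, with an adjusted p of up to 0.0842. With Ifit3b added the log2 fold change was 0.28 and the adjusted p 0.00143. Ifit3b by itself was at 4.30 CPM in females and 3.10 CPM in males, a log2 fold change of 0.47 and an adjusted p of 0.000363.

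Isg15 was at 0.809 ± 0.215 CPM (SD, n = 8) in females and at 0.554 ± 0.196 CPM (n = 14) in males, from 8 to 19 and 4 to 11 reads. It passed the filter for all mice, which needs 4 mice at 0.669 CPM, with 4 males and 5 females at that level, and it failed that of the males alone. All 8 females lay above the male median, and 4 above every male. The log2 fold change was 0.54 ± 0.19 (SE), with an adjusted p of 0.0296 by edgeR. The call was lost with DESeq2 (0.0621), after the exon length correction (0.0501) and in dominant (0.102) or submissive mice alone (0.302), where the log2 fold changes were 0.54, 0.49, 0.62 and 0.46. It was lost as well on leaving out dominant female 1, 2 or 3, submissive female 1 or 4, dominant male 3 or submissive male 1 or 6, with an adjusted p of up to 0.0967.

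Tgtp1 and Bst2 were also compared between the tables within each rank. In submissive mice alone 3885 of 14988 genes were called (25.9%), and in dominant mice alone 2171 of 14949 (14.5%). Bst2 was called in submissive mice, higher in females by 0.46 (0.11 to 0.81) on the log2 scale, adjusted p = 0.0493 by edgeR. In dominant mice its value was -0.07 (-0.44 to 0.31), and over all mice 0.20 with an adjusted p of 0.222. Tgtp1 passed the filter of the submissive mice through the 4 females, since 1 of the 7 males reached the level needed, so its value there is given with no test or interval. It was 1.03, higher in females, beside -0.29 (-0.85 to 0.27) in dominant mice. Over all mice it was 0.37 with an adjusted p of 0.141, and with Tgtp2 added 0.38, adjusted p = 0.0439. The direct test of a dependence on rank, that of the rank effects between the sexes, did not pass the threshold for either gene (adjusted p = 0.999 by edgeR).

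**Figure D4:**
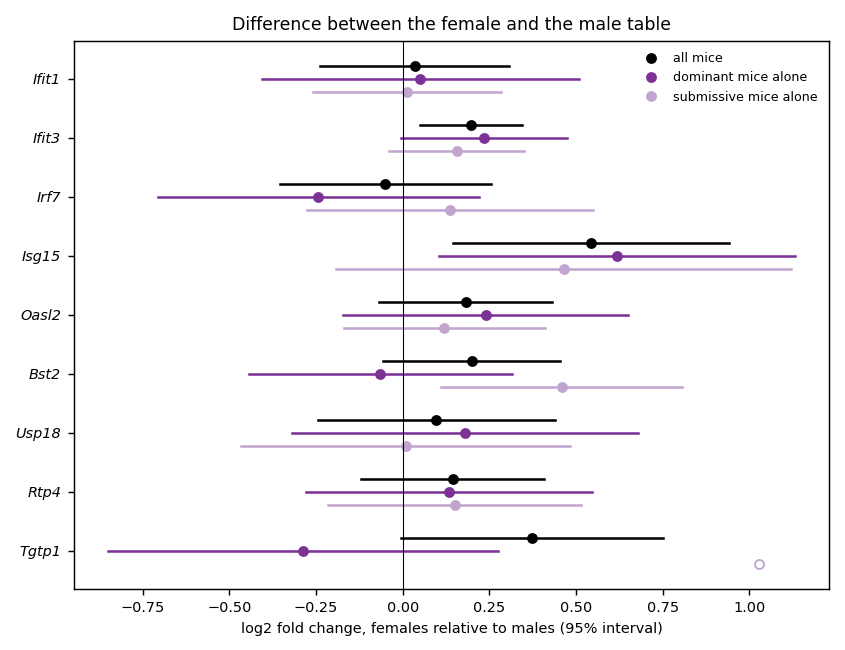
Log2 fold change of each gene, females relative to males, with its 95% interval, for all mice (black), dominant mice alone (dark purple) and submissive mice alone (light purple). The open symbol, Tgtp1 in submissive mice, has no interval because the gene passed the expression filter through the females. The 3 values lie close together for Ifit3 and Isg15, and the values of dominant and submissive mice lie on opposite sides of 0 for Tgtp1, Bst2 and Irf7.

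Of the 101 further pathway genes tested between the tables, 24 were called (23.8%, beside 36.2% of all genes), 13 higher and 11 lower in females, where 18.4% of all genes were higher and 17.8% lower. The interferon-inducible GTPases called were all higher, namely Irgm2 (0.29), Iigp1 (0.35), Gbp3 (0.31) and Gbp2 (0.37 on the log2 scale), 4 of 13 tested. Of 13 class I genes 4 were called, all higher, with H2-T23 at 0.61, Tap2 at 0.51, H2-D1 at 0.26 and B2m at 0.14. Among 13 genes of nucleic acid sensing 5 were called, all lower, namely Tlr9 (-0.83), Tmem173, which encodes STING (-0.30), Tlr3 (-0.29), Mavs (-0.28) and Trim25 (-0.22). Of the signalling genes Stat2 (-0.21) and Irf3 (-0.18) were lower and Jak1 (0.10) was higher. The other interferon-stimulated genes gave 4 called higher, Ifit3b, Slfn5, Ifi27 and Herc6, and 4 called lower, Adar, Shisa5, Lgals3bp and Tor3a.

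The mean log2 level of the 9 genes (of 7 in the males, without Isg15 and Tgtp1), each centred on the mean of its group of mice, was compared with that of every other gene, centred likewise, over the mice. The most alike over all 22 mice was Phospho1, a phosphatase of bone mineralization (Pearson r = 0.73, Spearman rho = 0.69, and r = 0.65 without the 2 mice farthest from the median), followed by Cd44, an adhesion receptor (r = 0.73), and Esyt1 (r = 0.72). Over the 14 males it was Naa50 (r = 0.91) and over the 8 females Gm6537 (r = 0.99). Each was the highest of 14730 to 15224 values, and the mice of a sex share a table, so the likeness is a description. The 101 further pathway genes had a median r of 0.12, beside 0.01 over all genes. The 3 to 5 of 12 leukocyte markers tested had a higher median r of 0.35 over all mice, 0.28 in males and 0.46 in females. The female value is from 3 genes and 8 mice. Interferon-inducible GTPases had 0.21, 0.24 and 0.15, and class I genes 0.18, 0.22 and -0.15. Endothelial markers had 0.11, 0.19 and -0.09, and microglial markers -0.23, -0.22 and -0.08. The part of cell makeup in this likeness was not tested.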

How the data were processed

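Total RNA of the right hemisphere was sequenced from 22 mice. Reads were trimmed by the authors (cutadapt 1.15, then bbduk) and aligned to mm10 by STAR 2.6.0a. The authors deposited raw counts per gene from featureCounts 1.6.2, in 1 table for males and 1 for females. The strand setting and the handling of reads that map to several places are not given in the sources used here. Of the 24421 genes, 27 are listed under a date.

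Groups came from the sample labels, and cages from the library names. CPM were computed with TMM factors over all 22 mice. Genes were kept with edgeR's expression filter (minimum count 10, minimum total 15) and tested with the quasi-likelihood test of edgeR 4.0.16 (R 4.3.3) over the whole table, adjusted by Benjamini-Hochberg and called at 0.05. Rank was tested within each sex, and the difference of rank effects and the tables over all 22 mice. Cage was tested with rank as a covariate. Log2 levels used a prior count of 2. Tests were run on simulated data with known changes before use, with a fixed spread beyond counting error and no cage effect in the rank tests. The genes changed there were read more deeply than Isg15 and Tgtp1, so these runs do not cover either gene. The 9 genes and all lists were chosen with earlier results of these data known, and all 9 are named, with further pathway genes named where called or at an unadjusted p under 0.05. Receptors and copies were named regardless of their values.

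The replicate numbers pair the mice, since numbers share a cage and the study killed both mice of a cage together. Deviations of cage mates correlated with a mean of 0.177 in males (other pairs -0.0293) and 0.0239 in females (other pairs -0.00798). The 54 pairs within groups all differed by more than sampling noise (mean chi-square per gene 1.77 to 15.7). Alternatives were DESeq2 1.42.0, its size factors, no filter, a loess correction for exon length (span 0.3), the cage block, both together, 1 fit of all mice, summed cages, each rank alone, each mouse left out and, chosen after the data were seen, copies added and ranks swapped within cages.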

Additional observations from a re-analysis of the deposited data

Results flagged for a closer look

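Of 36 groups of 4 to 7 mice examined over the 9 genes, 2 held a mouse far from the rest by Dixon's test, and chance gives about 1 in 20. Oasl2 was at 2.61 CPM in dominant female 2, while the next dominant female had 3.65 CPM. Usp18 was at 2.42 CPM in dominant male 2, while the next dominant male had 1.44 CPM.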

How the results depend on the processing

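No gene of the 9 was called for rank, cage or the difference of rank effects under any alternative run for it. In males, where Isg15 and Tgtp1 fail the filter, few could be run for them (1 and 2 for rank, 0 and 1 for cage). The cage block, which uses the pairing, changed none of these calls. For all genes in females, the block gave 36 calls by rank in place of 14, and 8 with the exon length correction added. DESeq2 gave 77, no filter 84, the length correction alone 0 (1120 at an unadjusted p under 0.05) and 1 fit of all 22 mice 0 (579). Leaving out 1 mouse gave 0 to 77, the latter without dominant female 2, and 0 without submissive female 1 or 3. Male cage calls were 511 with the length correction and 381 to 2102 on leaving out a mouse, the latter without submissive male 1. Female cage calls were 5 with DESeq2, 99 without the filter and 7 to 92 with a mouse left out. The tables gave 2171 calls in dominant and 3885 in submissive mice alone. The cause was not tested.

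Some values changed sign. Rtp4 by rank in females was 0.00089 with DESeq2, 0.00041 with its size factors, 0.029 with the length correction, 0.0014 with the block, 0.032 with both and 0.0069 in 1 fit. The Rtp4 difference of rank effects was 0.013 with the length correction and 0.014 with the block added. Ifit3 by rank in males was 0.073 with copies added. Between the tables, Irf7 was 0.14 in submissive mice alone, and in dominant mice alone Bst2 was -0.065 and Tgtp1 -0.29, against 0.20 and 0.37 over all mice. With a mouse left out, rank values ran from -0.056 to 0.047 for Ifit3, -0.051 to 0.23 for Usp18 and -0.044 to 0.083 for Rtp4 in males, and -0.17 to 0.14 for Rtp4 in females. Differences of rank effects ran from -0.057 to 0.16 for Ifit1, -0.0064 to 0.31 for Isg15 and -0.18 to 0.12 for Rtp4. Table values ran from -0.025 to 0.097 for Ifit1, -0.14 to 0.036 for Irf7 and -0.0065 to 0.19 for Usp18.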
